A study of Mus musculus with 10 samples.

Results

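The genes described here are 36 mouse genes that move fatty acids into mitochondria, oxidize them there and use the ketone bodies made from them. They were taken as a named list, not by a cutoff on measured values, but with earlier results of these data known, and each was read from a probe set that carries its symbol and no other. Of the 36 genes, 33 were measured, out of 18820 distinct gene symbols on the array. Acsl3 and Acadvl were present only on probe sets shared with another gene, and Acsl1 had no probe set that could be named here, so these 3 have no value below.

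Long-chain fatty acids are joined to coenzyme A by acyl-CoA synthetases, handed to carnitine by Cpt1a, carried across the inner mitochondrial membrane by Slc25a20 and returned to coenzyme A by Cpt2. Acyl-CoA dehydrogenases then start each cycle of beta-oxidation and pass electrons to Etfa, Etfb and Etfdh, and the trifunctional protein of Hadha and Hadhb with the thiolase Acaa2 completes it. Many of these genes are textbook targets of the PPAR nuclear receptors, which bind DNA together with a retinoid X receptor at a repeated AGGTCA hexamer. The colonic epithelium is known for burning short-chain fatty acids made by bacteria, and PPARγ, the receptor studied here, is abundant in it.

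Expression was read on 10 whole-transcript arrays of colonic organoids, which are epithelial cultures grown in gel from crypt cells of the colon. Colons were taken from 3 males of each genotype, bred on C57BL/6J, and their age is not given in the sources used here. Knockout mice were homozygous for Pparg with loxP sites around exons 1 and 2 and carried Cre recombinase driven by the villin promoter, which is active in intestinal epithelium. Controls were wild-type littermates. Organoids were exposed for 24 h to 1 µM rosiglitazone, a synthetic PPARγ agonist, or to 0.1% DMSO as vehicle. Wild-type mice 42 and 47 gave vehicle arrays (n = 2), and mice 48, 42 and 47 gave rosiglitazone arrays (n = 3), in the order of their replicate numbers. Knockout mice 46 and 44 gave vehicle arrays (n = 2), and mice 46, 45 and 44 gave rosiglitazone arrays (n = 3). Values below follow this order of mice within each group. Mice 48 and 45 had no vehicle array, so a rosiglitazone array could be set against vehicle of the same animal in 4 mice.

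All values are log2 expression, so a difference of 1 is a 2-fold difference, and arrays give no read depth: the number of arrays limits the precision. Arrays of a group correlated at r from 0.986 to 0.996 and array medians lay between 3.54 and 3.72. The Pparg probe set read 8.35 and 8.41 in wild-type vehicle, 8.30, 7.59 and 7.93 in wild-type rosiglitazone, 8.58 and 8.47 in knockout vehicle and 8.78, 7.37 and 8.41 in knockout rosiglitazone. The knockout values were not lower as a group. The place of the probes relative to the floxed exons is not given in the sources used here. The deletion is therefore unchecked by it, genotype rests on the labels alone, and the arrays are called knockout-labelled. Epithelial markers were bright on every array, with a mean of 9 genes between 10.3 and 10.68, while 4 of 5 fibroblast genes, 3 of 3 smooth muscle genes, 3 of 3 endothelial genes, 3 of 3 measured immune genes and 4 of 4 adipocyte genes stayed under 4 on all 10 arrays. Goblet cell markers (6 of 7 measured) ranged more widely, from a mean of 3.97 to 8.78 in knockout-labelled rosiglitazone arrays, where mouse 45 was highest, against 4.09 to 6.20 across both vehicle groups.

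Set against vehicle of the same animal, rosiglitazone arrays of wild-type mice were higher for most of these genes. The largest mean difference was 0.81, for Acot2, and no member passed the test across all probe sets. In mice 42 and 47, 20 of the 33 measured members were higher on rosiglitazone in both animals, where 25.3% of all 23099 tested probe sets were, and 8 were lower in both, where 25.8% were. At a difference of at least 0.2 in both animals, a size chosen after the values were seen, there were 10 members (Cpt1a, Cpt2, Slc25a20, Acad10, Etfa, Hadha, Hadhb, Acaa2, Acot2 and Auh) against 2.98% of all probe sets. In knockout-labelled mice 44 and 46, 12 members were higher in both, against 24.4% of probe sets, and 5 were lower in both, against 25.4%. The mean of mature colonocyte markers (6 of 7 measured) went from 4.07 to 4.51 in mouse 44 and from 4.06 to 4.53 in mouse 46. It went from 4.97 to 4.81 in mouse 42 and from 5.57 to 5.46 in mouse 47. The markers did not move together. In both wild-type mice Car4 and Ceacam20 were higher on rosiglitazone, and Guca2a, Slc9a3, Slc26a3 and Aqp8 were lower. In both knockout-labelled mice Car4, Ceacam20, Guca2a and Slc9a3 were higher and Aqp8 was lower. Slc26a3 and Aqp8 were dim, with means of 2.60 and 2.36. The part of these markers in either response was not tested. Members at least 0.2 higher in both knockout-labelled mice were Cpt1a, Etfdh and Hadha, against 4.04% of probe sets. In whole organoids, fewer cells of a type and less RNA per cell cannot be told apart.

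All 4 mice had higher rosiglitazone than vehicle values for 10 members, namely Cpt1a, Acadl, Acad11, Etfb, Etfdh, Hadha, Hadhb, Eci2, Bdh1 and Auh, against 6.33% of all probe sets. Echs1 and Mcee were lower in all 4, against 6.98%. The size of at least 0.2 was reached in all 4 mice by Cpt1a and Hadha, against 0.169% of probe sets, which is 39 of 23099. The median difference of the 33 members was 0.18 in mouse 42 and 0.10 in mouse 47, both wild type, against 0.13 in mouse 44 and -0.01 in mouse 46, both knockout-labelled. Medians of all probe sets in these mice were 0.01, -0.02, 0.01 and -0.01. The list thus sat above the array as a whole in 3 mice and level with it in mouse 46. Centring each array on its own median added Acads and Acad10 to the 10 members higher in all 4 mice, making 12 where 9.23% of all probe sets then were, and left Echs1 alone lower in all 4. In mouse 47, where array medians differed by -0.07 between the treatments, it made 28 of 33 members higher, against 21 without centring. Centring raised every probe set of that comparison alike, and the share of all probe sets then higher was not counted.

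**Figure D1:**
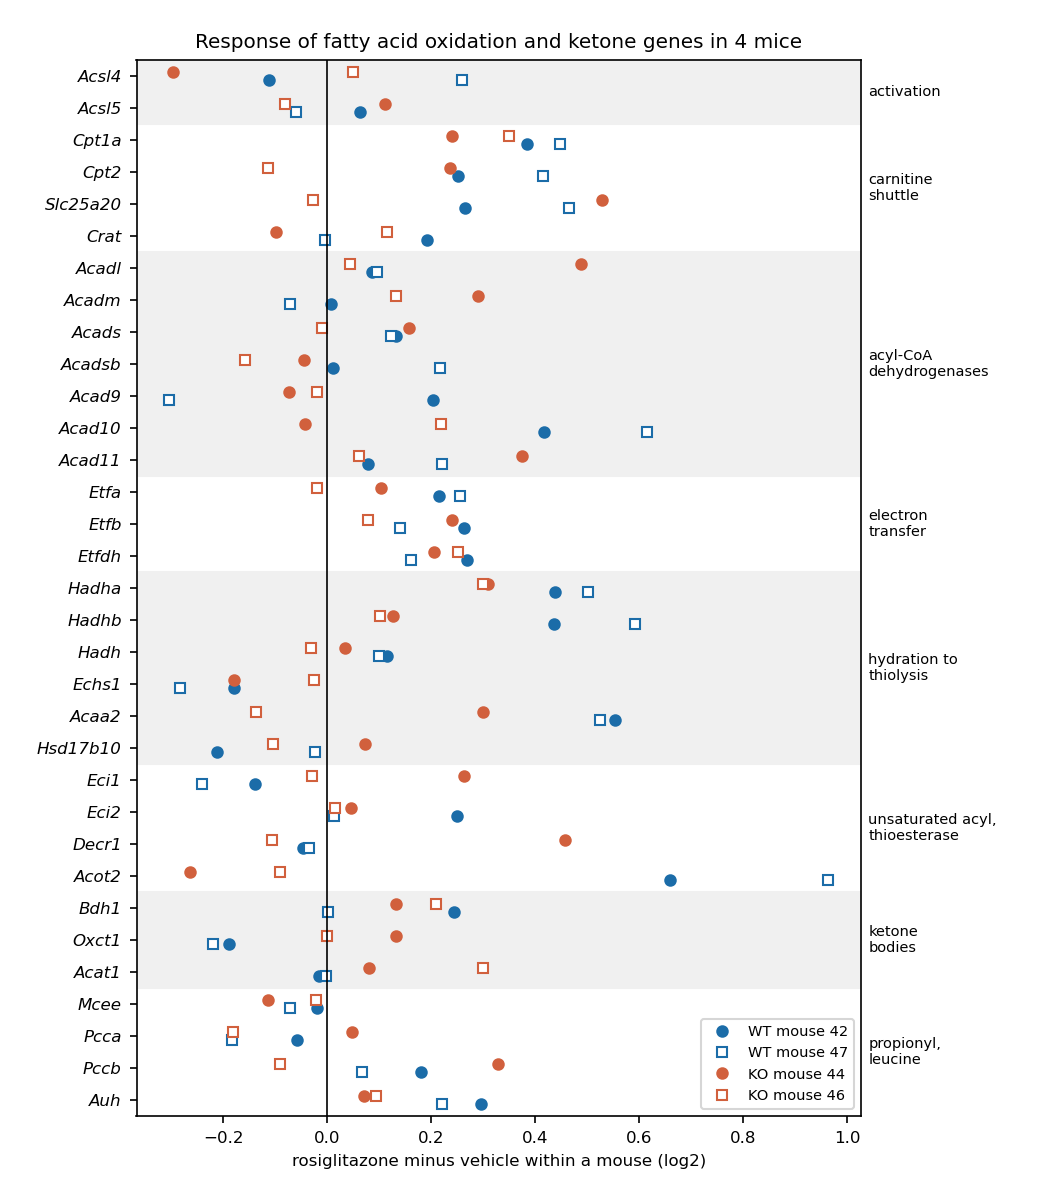
Rosiglitazone minus vehicle within a mouse (log2, horizontal axis) for each of the 33 measured genes, grouped by step of the pathway; blue marks are wild-type mice 42 (filled circle) and 47 (open square), orange marks are knockout-labelled mice 44 (filled circle) and 46 (open square). Both wild-type mice lie between 0.44 and 0.59 for Hadha, Hadhb and Acaa2 and at 0.66 and 0.96 for Acot2, while both knockout-labelled mice lie below 0 for Acot2.

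Across the groups, with all arrays in the fit and no mouse term, limma called 0 members at an adjusted p under 0.05 in any of the 5 comparisons. Over all probe sets it called 0% for rosiglitazone in either genotype, 0% for the difference between the responses, 0% for genotype under vehicle and 0.0216%, or 5 probe sets, for genotype under rosiglitazone. In wild type 21 of 33 members were higher on rosiglitazone, against 54.3% of all probe sets and 45.6% of the 11549 brighter than the median one. All 33 measured members were among those brighter probe sets. The median difference was 0.05 against 0.01 over all probe sets. With each array centred 25 members were higher, and the share of all probe sets then higher was not counted. In knockout-labelled arrays 22 were higher without centring (46.4% of all and 52% of the brighter ones), with a median of 0.08 against -0.01. Acad10 alone had an unadjusted p under 0.05 in wild type, where 0.991% of probe sets did, and 0 members had it in knockout-labelled arrays, where 3.06% did.

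Arrays of the same mouse resembled each other, so the mouse was also put in the fit. With mouse as a fixed block, which leaves 2 residual degrees of freedom before moderation and uses only the 4 paired animals for treatment, 7 members had an unadjusted p under 0.05 in wild type (Cpt1a, Cpt2, Acad10, Hadha, Hadhb, Acaa2 and Acot2), where 3.85% of all probe sets did. In knockout-labelled mice 2 did (Cpt1a and Hadha), where 7.49% did. The smallest adjusted p among members in this fit was 0.403 in wild type, for Acot2, and 0.64 in knockout-labelled mice, for Hadha, so 0 members passed with the block either. Array by array, wild-type rosiglitazone of mouse 47 was the highest of the 10 arrays for 13 of the 33 members, and knockout-labelled vehicle of mouse 44 was the lowest for 14. Wild-type rosiglitazone of mouse 48, the animal without a vehicle array, had a median member deviation of -0.06 from the gene means, against 0.09 and 0.13 in mice 42 and 47 of the same group.

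**Figure D2:**
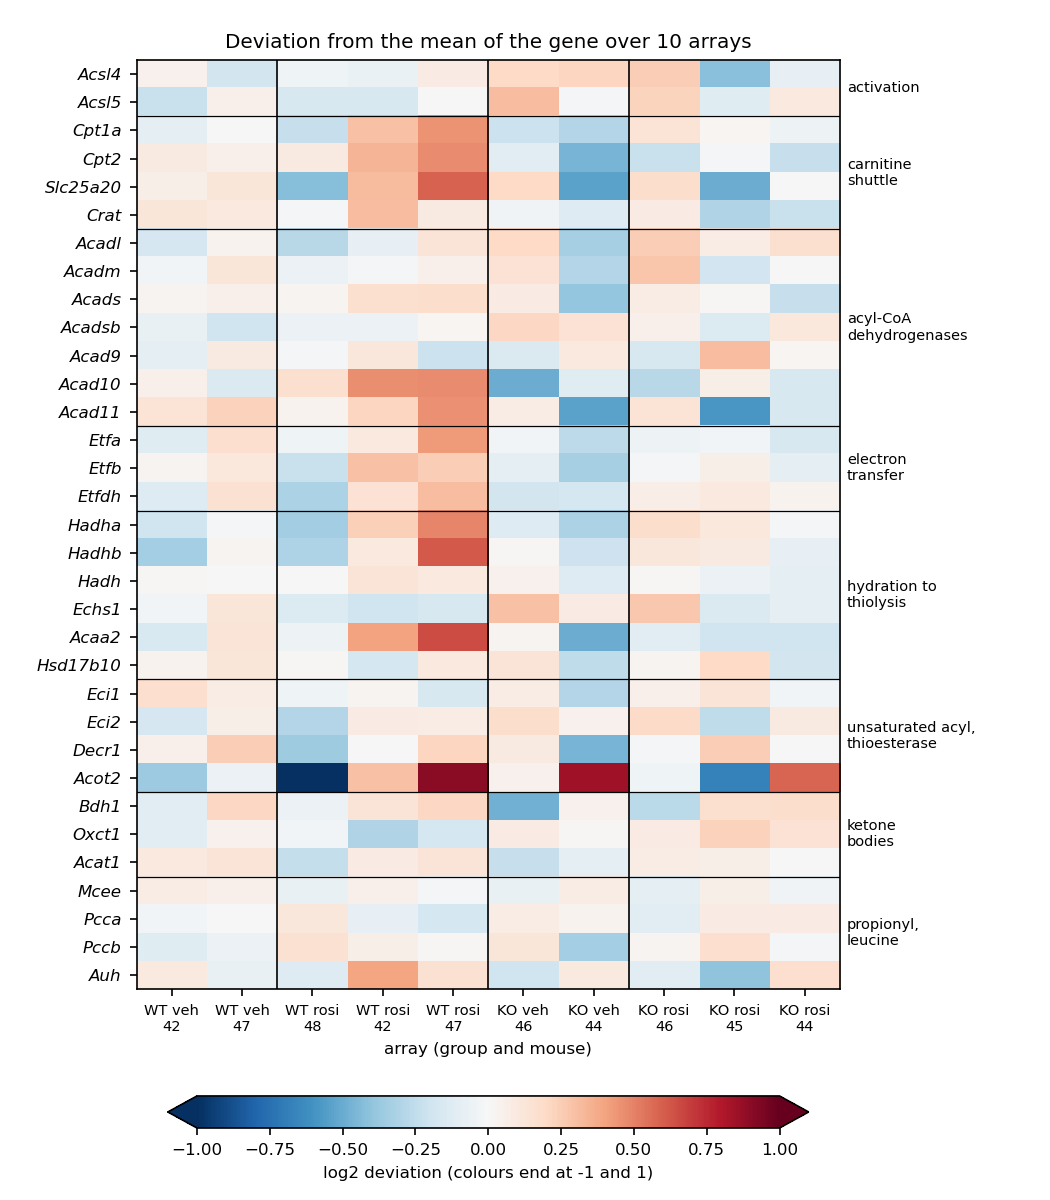
Deviation of each array from the mean of the gene over all 10 arrays (log2 colour scale, colours end at -1 and 1), genes in rows by step and arrays in columns by group and mouse. The wild-type rosiglitazone arrays of mice 42 and 47 are above the mean for all 4 genes of the carnitine shuttle. That of mouse 48 is below it for Cpt1a, Slc25a20 and, at 7.98 against 7.99, Crat. The knockout-labelled vehicle array of mouse 44 has the lowest value for 14 genes.

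Activation of fatty acids was represented by Acsl4, a synthetase that prefers arachidonate, and Acsl5, a synthetase typical of the intestinal epithelium. Acsl5 read 9.48 and 9.76 in wild-type vehicle, 9.55, 9.54 and 9.70 in wild-type rosiglitazone, 10.01 and 9.69 in knockout-labelled vehicle and 9.93, 9.59 and 9.80 in knockout-labelled rosiglitazone. The groups overlapped on either treatment, and the wild-type response was -0.02 (SE 0.16, n = 3 and 2, limma adjusted p = 1). The responses of Acsl4 were 0.06 (SE 0.18) in wild type and -0.29 (SE 0.18) in knockout-labelled arrays (n = 3 and 2 for either, adjusted p = 1). Its knockout-labelled rosiglitazone values were 9.49, 8.82 and 9.16 for mice 46, 45 and 44, and the paired mice differed by 0.05 and -0.30 for 46 and 44. Neither synthetase differed in the same direction in both paired animals of either genotype.

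In the wild-type fit all 4 measured members of carnitine transfer lay higher on rosiglitazone, by 0.02 to 0.23, as did all 3 of electron transfer, by 0.03 to 0.13. Of all probe sets 54.3% were higher, and of the brighter ones 45.6%. In the knockout-labelled fit 3 of 4 and 3 of 3 lay higher, against 46.4% of all and 52% of the brighter ones. Leaving out 1 array ended these counts. In wild type Crat turned negative without the treated array of mouse 42, and Etfa, Etfb and Etfdh without its vehicle array. In the knockout-labelled fit Cpt2, Slc25a20 and Etfa turned negative without the vehicle array of mouse 44. Cpt1a, the outer-membrane transferase that gates entry of long-chain fatty acids, read 8.49 and 8.58 in wild-type vehicle (mice 42 and 47) and 8.36, 8.88 and 9.03 in wild-type rosiglitazone (mice 48, 42 and 47). It read 8.37 and 8.29 in knockout-labelled vehicle (mice 46 and 44) and 8.72, 8.60 and 8.53 in knockout-labelled rosiglitazone (mice 46, 45 and 44). Every knockout-labelled rosiglitazone array was thus above both vehicle arrays, while in wild type the array of mouse 48 was below both. Within mice the differences were 0.39 in mouse 42, 0.45 in mouse 47, 0.24 in mouse 44 and 0.35 in mouse 46. The fit gave 0.22 (SE 0.19, n = 3 and 2, limma adjusted p = 1) in wild type and 0.29 (SE 0.19, n = 3 and 2, adjusted p = 1) in knockout-labelled arrays. Their difference was 0.07 (SE 0.26, adjusted p = 1). With mouse as a fixed block the responses came to 0.42 (SE 0.11, adjusted p = 1) and 0.30 (SE 0.11, adjusted p = 0.649), with a difference of -0.12 (SE 0.16, adjusted p = 0.988).

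The promoter of Cpt1a carries 1 copy of the AGGTCA hexamer that PPARs and other nuclear receptors recognise, on the strand opposite to the gene. The 250 bases before its RefSeq start site in GRCm38.p6, chr19:3323051-3323300 on the plus strand, are shown because Cpt1a was 1 of the 2 members at least 0.2 higher in all 4 mice; capitals mark the hexamer in reverse complement.
Cpt1a: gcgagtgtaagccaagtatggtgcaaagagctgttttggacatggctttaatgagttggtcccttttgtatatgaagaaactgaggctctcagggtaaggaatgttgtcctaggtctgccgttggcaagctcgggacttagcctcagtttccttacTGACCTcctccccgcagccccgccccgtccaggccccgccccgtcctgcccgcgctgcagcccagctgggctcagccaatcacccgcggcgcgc

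Slc25a20, the carnitine-acylcarnitine carrier of the inner membrane, read 8.15 and 8.21 in wild-type vehicle and 7.67, 8.41 and 8.68 in wild-type rosiglitazone. It read 8.29 and 7.56 in knockout-labelled vehicle and 8.27, 7.59 and 8.09 in knockout-labelled rosiglitazone. Mice 48 and 45, both without a vehicle array, were the lowest of their groups, and the treatments overlapped in each genotype. Paired differences were 0.26 and 0.46 in mice 42 and 47, and 0.53 and -0.03 in mice 44 and 46. The fit gave 0.07 (SE 0.31) in wild type and 0.06 (SE 0.31) in knockout-labelled arrays (n = 3 and 2 for either, limma adjusted p = 1). Leaving out the treated array of mouse 42 or 47 turned the wild-type value negative, and its lowest over all settings was -0.14.

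Cpt2, the inner-membrane transferase that regenerates acyl-CoA, read 8.25 and 8.21 in wild-type vehicle and 8.25, 8.50 and 8.63 in wild-type rosiglitazone, against 8.04 and 7.69 in knockout-labelled vehicle and 7.93, 8.14 and 7.93 in knockout-labelled rosiglitazone. Of all probe sets, 16.1% were lower in knockout-labelled arrays without overlap under vehicle and 4.47% under rosiglitazone, and the share over both was not counted. For Cpt2 the highest of the 5 knockout-labelled values lay below the lowest of the 5 wild-type values. With each array centred on its median this held under rosiglitazone but not under vehicle, where mouse 46 (3.65 above the array median) came between wild-type mice 42 and 47 (3.64 and 3.67). Knockout-labelled minus wild type was -0.36 (SE 0.18, n = 2 and 2, limma adjusted p = 0.855) under vehicle and -0.46 (SE 0.14, n = 3 and 3, adjusted p = 0.915) under rosiglitazone, so neither passed. Over the alternative settings the rosiglitazone difference stayed negative, from -0.63 to -0.37, with adjusted p from 0.355 to 1. Crat, which transfers short acyl groups to and from carnitine, differed by -0.19 (SE 0.17) under vehicle and -0.28 (SE 0.14) under rosiglitazone between the same groups (adjusted p = 0.873 and 0.999).

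Of the acyl-CoA dehydrogenases, which oxidize acyl-CoA of different chain lengths, 7 of 8 were measured. Acadl, for long chains, read 8.47 and 8.67 in wild-type vehicle and 8.36, 8.55 and 8.77 in wild-type rosiglitazone, then 8.84 and 8.30 in knockout-labelled vehicle and 8.88, 8.71 and 8.79 in knockout-labelled rosiglitazone. It was higher on rosiglitazone within all 4 mice, by 0.09 and 0.10 in mice 42 and 47, 0.49 in mouse 44 and 0.04 in mouse 46, and the treatments overlapped in both genotypes. Acadm, for medium chains, stayed between 8.97 and 9.15 in wild type and between 8.74 and 9.31 in knockout-labelled arrays, where mouse 46 supplied the top value on either treatment. Its response was -0.06 (SE 0.17) in wild type and 0.10 (SE 0.17) in knockout-labelled arrays (n = 3 and 2 for either, limma adjusted p = 1). Acads and Acad9 stayed within 0.56 and 0.52 over the 10 arrays.

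Acad10, a member of the dehydrogenase family, was among the dimmest members, with a mean of 5.09, and had the largest difference on rosiglitazone in the wild-type fit. It read 5.14 and 4.95 in wild-type vehicle, 5.25, 5.56 and 5.56 in wild-type rosiglitazone, 4.60 and 4.98 in knockout-labelled vehicle and 4.82, 5.15 and 4.93 in knockout-labelled rosiglitazone. The wild-type groups did not overlap, and mouse 48, at 5.25, lay between vehicle of mouse 42 at 5.14 and the other treated arrays at 5.56. The response was 0.41 (SE 0.17, n = 3 and 2, limma adjusted p = 1) in wild type and 0.18 (SE 0.17, n = 3 and 2, adjusted p = 1) in knockout-labelled arrays, with a difference between them of -0.23 (SE 0.24, adjusted p = 1). Under rosiglitazone the knockout-labelled arrays lay 0.49 lower, as a difference of -0.49 (SE 0.15, n = 3 and 3, adjusted p = 0.905), again without overlap.

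Acad11, another family member, had its lowest values in knockout-labelled vehicle of mouse 44 (7.07) and knockout-labelled rosiglitazone of mouse 45 (7.02), against 7.63 to 8.06 in wild type. Its genotype differences were -0.42 (SE 0.26, n = 2 and 2, limma adjusted p = 0.859) under vehicle and -0.44 (SE 0.21, n = 3 and 3, adjusted p = 0.999) under rosiglitazone. Acadsb, which acts on branched-chain acyl-CoA from isoleucine, went the other way under vehicle, at 6.46 and 6.40 in knockout-labelled against 6.18 and 6.05 in wild-type arrays. That difference of 0.31 (SE 0.14, n = 2 and 2, adjusted p = 0.855) was the only member difference under vehicle with an unadjusted p under 0.05, which 5.69% of probe sets had. On rosiglitazone the Acadsb values were 6.19, 6.19 and 6.27 in wild type and 6.30, 6.11 and 6.35 in knockout-labelled arrays, which overlapped.

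Electrons from these enzymes pass through the flavoprotein of Etfa and Etfb to Etfdh and on to the respiratory chain. Etfdh, the quinone oxidoreductase, read 7.43 and 7.71 in wild-type vehicle and 7.24, 7.70 and 7.87 in wild-type rosiglitazone, against 7.38 and 7.39 in knockout-labelled vehicle and 7.63, 7.66 and 7.60 in knockout-labelled rosiglitazone. Within mice it was higher by 0.27, 0.16, 0.21 and 0.25 in mice 42, 47, 44 and 46. The knockout-labelled groups did not overlap, at 0.24 (SE 0.18, n = 3 and 2, limma adjusted p = 1), and the wild-type difference, with mouse 48 at the lowest value of all 10 arrays, was 0.03 (SE 0.18, n = 3 and 2, adjusted p = 1). Etfb was higher within the same mice by 0.26, 0.14, 0.24 and 0.08, and Etfa by 0.22, 0.26, 0.10 and -0.02.

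Hadha and Hadhb encode the subunits of the mitochondrial trifunctional protein, which carries out the last steps of the cycle on long chains. Hadha read 9.03 and 9.22 in wild-type vehicle and 8.88, 9.47 and 9.72 in wild-type rosiglitazone, with 9.11 and 8.91 in knockout-labelled vehicle and 9.41, 9.34 and 9.22 in knockout-labelled rosiglitazone. Treated arrays were above vehicle everywhere except in mouse 48, which had the lowest Hadha value of all 10 arrays. Paired differences were 0.44 and 0.50 in mice 42 and 47, and 0.31 and 0.30 in mice 44 and 46. The fit gave 0.23 (SE 0.21) in wild type and 0.31 (SE 0.21) in knockout-labelled arrays (n = 3 and 2 for either, limma adjusted p = 1). With the mouse block the values were 0.47 (SE 0.11, adjusted p = 1) and 0.30 (SE 0.11, adjusted p = 0.64), and their difference was -0.17 (SE 0.16, adjusted p = 0.982).

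Hadhb read 7.88 and 8.25 in wild-type vehicle and 7.91, 8.32 and 8.84 in wild-type rosiglitazone, with 8.23 and 8.02 in knockout-labelled vehicle and 8.33, 8.31 and 8.14 in knockout-labelled rosiglitazone. Paired differences of Hadhb were 0.44 in mouse 42 and 0.59 in mouse 47, against 0.13 in mouse 44 and 0.10 in mouse 46. The difference between the responses was -0.16 (SE 0.33, limma adjusted p = 1) in the fit without a mouse term and -0.40 (SE 0.16, adjusted p = 0.957) with the mouse block, and neither passed. A second probe set of Hadhb gave 0.37 in mouse 42, 0.58 in mouse 47, 0.11 in mouse 44 and 0.08 in mouse 46, close to the first in each animal.

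The start sites of Hadha and Hadhb lie head to head on chromosome 5, with 272 bases between them in GRCm38.p6, so each lies upstream of the other. The 250 bases before the RefSeq start of Hadhb, chr5:30155003-30155252 on the plus strand, cover the bases from 23 to 272 before the start of Hadha and are shown because both genes were higher within all 4 mice. No AGGTCA hexamer was found in them on either strand, so no letters are in capitals.
Hadhb: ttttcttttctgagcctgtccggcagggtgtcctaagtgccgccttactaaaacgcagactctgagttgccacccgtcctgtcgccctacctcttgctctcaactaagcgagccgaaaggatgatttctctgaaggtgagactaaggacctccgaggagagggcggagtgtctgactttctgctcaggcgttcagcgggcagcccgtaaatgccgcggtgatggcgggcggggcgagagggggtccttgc

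Acaa2, the thiolase that releases acetyl-CoA at the end of each cycle, read 9.53 and 9.81 in wild-type vehicle and 9.63, 10.08 and 10.34 in wild-type rosiglitazone, against 9.71 and 9.18 in knockout-labelled vehicle and 9.57, 9.48 and 9.48 in knockout-labelled rosiglitazone. Within mice 42 and 47 it was higher on rosiglitazone by 0.55 and 0.52, while mice 44 and 46 differed by 0.30 and -0.14. The 3 treated wild-type arrays were all above the 3 treated knockout-labelled arrays, with a difference of -0.50 (SE 0.19, n = 3 and 3, limma adjusted p = 0.999). The difference between the responses was -0.28 (SE 0.31, adjusted p = 1) without a mouse term and -0.46 (SE 0.20, adjusted p = 0.957) with it. Echs1, the short-chain enoyl-CoA hydratase, ran against these genes within the paired mice, at -0.18 and -0.28 in mice 42 and 47 and -0.18 and -0.03 in mice 44 and 46. Its wild-type groups did not overlap, at 8.63 and 8.78 on vehicle and 8.52, 8.45 and 8.50 on rosiglitazone, a difference of -0.22 (SE 0.15, n = 3 and 2, adjusted p = 1). Hadh, the dehydrogenase for shorter chains, varied by only 0.26 over the 10 arrays.

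**Figure D3:**
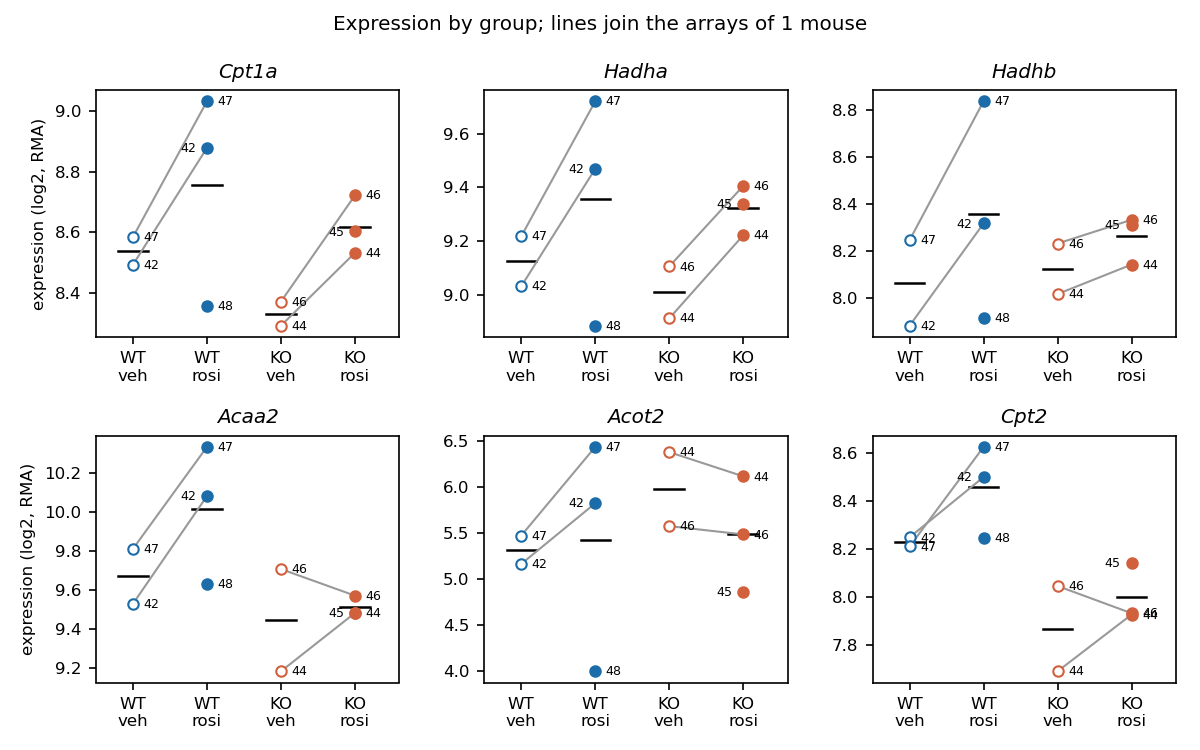
Expression (log2, vertical axis, a separate scale for each gene) of 6 genes by group, with mouse numbers beside the points, bars at the group means and lines joining the arrays of 1 mouse. Cpt1a and Hadha are higher on rosiglitazone within all 4 paired mice, Acot2 is higher in mice 42 and 47 and lower in mice 44 and 46, and all 5 knockout-labelled Cpt2 values lie below all 5 wild-type values.

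Among the enzymes for unsaturated acyl-CoA and the thioesterase, Acot2 had the widest spread of any member, 2.44 from the lowest to the highest array. Acot2, a mitochondrial thioesterase that frees fatty acids from coenzyme A, read 5.16 and 5.47 in wild-type vehicle and 3.99, 5.82 and 6.43 in wild-type rosiglitazone. It read 5.57 and 6.37 in knockout-labelled vehicle and 5.48, 4.85 and 6.11 in knockout-labelled rosiglitazone. Mice 48 and 45 held the lowest values, and the treatments overlapped in both genotypes. Paired differences were 0.66 in mouse 42 and 0.96 in mouse 47, against -0.26 in mouse 44 and -0.09 in mouse 46. The wild-type response was 0.10 (SE 0.60, n = 3 and 2, limma adjusted p = 1) without a mouse term and 0.81 (SE 0.13, adjusted p = 0.403) with the mouse block. The difference between the responses was -0.59 (SE 0.85, adjusted p = 1) and -0.99 (SE 0.19, adjusted p = 0.779), and neither passed.

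Acot2 lies in a cluster of near-identical thioesterase genes, and whether its probe set also reads a paralog was not tested. Acot1, its cytosolic neighbour, was dim, with a mean of 3.62 over the 10 arrays against 5.53 for Acot2. It differed by 0.62 and -0.24 in mice 42 and 47 and by 0.34 and -0.01 in mice 44 and 46. Acot4, with a mean of 4.37, differed by 0.00 and 1.04 in mice 42 and 47 and by 1.08 and 0.11 in mice 44 and 46. Acot3, with a mean of 2.22, differed by -0.17 and -0.13 and by -0.64 and -0.18 in the same mice. The 250 bases before the Acot2 start, chr12:83987611-83987860 on the plus strand of GRCm38.p6, are shown because it had the largest paired difference of any member; they hold no AGGTCA hexamer.
Acot2: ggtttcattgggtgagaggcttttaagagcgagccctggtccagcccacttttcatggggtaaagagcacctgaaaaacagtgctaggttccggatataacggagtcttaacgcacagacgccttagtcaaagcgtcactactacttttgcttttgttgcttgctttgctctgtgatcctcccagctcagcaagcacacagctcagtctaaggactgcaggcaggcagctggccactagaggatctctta

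Eci1, an isomerase for unsaturated chains, was lower without overlap in treated wild-type arrays, at 7.05, 7.12 and 6.93 against 7.26 and 7.17, a difference of -0.18 (SE 0.14, n = 3 and 2, limma adjusted p = 1). In knockout-labelled arrays it differed by 0.16 (SE 0.14), and the difference between the responses, 0.34 (SE 0.20, adjusted p = 1), had the smallest p of the members in that comparison. Decr1, the dienoyl-CoA reductase, read 6.27 and 6.47 in wild-type vehicle and 5.86, 6.22 and 6.43 in wild-type rosiglitazone. It read 6.31 and 5.76 in knockout-labelled vehicle and 6.20, 6.46 and 6.21 in knockout-labelled rosiglitazone. The difference between its responses was 0.46 (SE 0.29, adjusted p = 1). Paired differences in mice 44 and 46 were 0.46 and -0.11, and vehicle of mouse 44 had the lowest value of all 10 arrays.

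Ketone use was represented by Bdh1, which interconverts the main ketone bodies, Oxct1, which activates acetoacetate with coenzyme A, and Acat1, which splits the product to acetyl-CoA. Oxct1 read 8.86 and 9.01 in wild-type vehicle and 8.94, 8.67 and 8.79 in wild-type rosiglitazone, with 9.05 and 8.98 in knockout-labelled vehicle and 9.05, 9.20 and 9.11 in knockout-labelled rosiglitazone. The treated genotypes did not overlap, and knockout-labelled arrays were higher by 0.32 (SE 0.12, n = 3 and 3, limma adjusted p = 0.992). Mice 42 and 47 were lower on rosiglitazone by -0.19 and -0.22 as differences, whereas mice 44 and 46 were at 0.13 and 0.00.

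Acat1 read 9.30 and 9.33 in wild-type vehicle and 8.96, 9.28 and 9.32 in wild-type rosiglitazone, with 8.97 and 9.11 in knockout-labelled vehicle and 9.27, 9.25 and 9.19 in knockout-labelled rosiglitazone. The knockout-labelled treatments did not overlap, at a difference of 0.20 (SE 0.14, n = 3 and 2, limma adjusted p = 1), and the wild-type difference of -0.12 (SE 0.14, adjusted p = 1) came with overlap. Bdh1 read 7.56 and 7.88 in wild-type vehicle, 7.61, 7.80 and 7.88 in wild-type rosiglitazone, 7.19 and 7.71 in knockout-labelled vehicle and 7.40, 7.83 and 7.84 in knockout-labelled rosiglitazone. Mouse 46 was lowest for Bdh1 on both treatments, and paired differences were 0.24, 0.00, 0.13 and 0.21 in mice 42, 47, 44 and 46. As a step, all 3 ketone genes had a positive difference between the responses, from 0.19 to 0.32, with 0 of 3 past the test. The lowest, that of Bdh1, was 0.05 with mouse as a fixed block and -0.07 without knockout-labelled vehicle of mouse 46.

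The remaining members handle propionyl-CoA and leucine breakdown. Mcee, the methylmalonyl-CoA epimerase, was among the brightest probe sets with Hadh, Etfb and Acsl5, and varied least of all members, by 0.17 over the 10 arrays. Pcca and Pccb, the propionyl-CoA carboxylase subunits, stayed within 0.29 and 0.51. Pccb was higher without overlap in treated wild-type arrays, at 6.47, 6.38 and 6.33 against 6.20 and 6.26, a difference of 0.16 (SE 0.15, n = 3 and 2, limma adjusted p = 1). Auh, a hydratase of the leucine pathway, was higher within mice 42 and 47 by 0.30 and 0.22 and within mice 44 and 46 by 0.07 and 0.09. A probe set's brightness depends on its probes, so no order of transcript amounts between genes is read from these levels.

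Groups without overlap were counted for every comparison beside the same share over all probe sets. On rosiglitazone in wild type they were Acadsb, Acad10 and Pccb higher (8.65% of all probe sets) and Echs1 and Eci1 lower (6.78%), shares near those of the array as a whole. In knockout-labelled arrays they were Cpt1a, Etfb, Etfdh, Hadha and Acat1 higher, 15.2% of the measured members against 5.81% of all probe sets, and Acadsb lower (7.93%). Without overlap under vehicle, knockout-labelled arrays were higher for Acsl4, Acadsb, Acot2 and Pcca (23% of all) and lower for Cpt1a, Cpt2, Crat, Acad11, Etfb, Etfdh, Eci1 and Acat1, 24.2% of measured members against 16.1% of all. Among the 11549 probe sets brighter than the median one, which include all 33 measured members, 23.2% were lower. Of the same brighter probe sets 13.5% were higher, against 12.1% of members. The counts also depended on the scaling: with each array centred, lower without overlap under vehicle held for Acat1 alone (6.64% of all), and higher for 8 members (40.7% of all). Under rosiglitazone Oxct1 was higher (4.22%) and Cpt2, Acad10 and Acaa2 were lower (4.47%). Centring kept Oxct1 and added Eci1 and Mcee higher (8.33% of all), and kept Cpt2 and Acad10 lower (1.66%). For the response in wild type, centring kept Acad10 and Pccb higher and added Cpt2, Acads and Hadh, 15.2% of members against 9.41% of all. Eci1 alone stayed lower (3.97% of all). In knockout-labelled arrays it kept Cpt1a, Etfdh, Hadha and Acat1 higher and added Oxct1, 15.2% against 6% of all, and Acadsb was no longer lower.

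Between genotypes, the carnitine shuttle was the step with all 4 measured members lower in knockout-labelled arrays on both treatments, by medians of -0.23 under vehicle and -0.28 under rosiglitazone, with 0 of 4 past the test. Leaving out 1 array ended that count on either treatment: Slc25a20 came to 0.11 under vehicle without mouse 44, and Cpt1a to 0.0017 under rosiglitazone without mouse 47. Over the whole list 10 of 33 members, or 30.3%, were higher under vehicle (55.6% of all probe sets and 41.6% of the brighter ones). The median difference was -0.12 against 0.03. Under rosiglitazone 15 of 33, or 45.5%, were higher (50.5% of all and 45.4% of the brighter ones), with a median of -0.01 against 0.00. The vehicle shift depended on the scaling: array medians differed by -0.13 between these groups, and with each array centred 17 of 33 members were higher and the median was 0.0051. Under rosiglitazone, where array medians differed by -0.09, centring made it 20 of 33. The share of all probe sets higher after centring was not counted on either treatment. Cpt2, Acad10, Acaa2 and Oxct1 had an unadjusted p under 0.05 under rosiglitazone, where 4.81% of probe sets did. The mean of colonocyte markers (6 of 7 measured) differed with genotype under vehicle, though Aqp8 and Ceacam20 overlapped. It was 4.97 and 5.57 in wild type and 4.06 and 4.07 in knockout-labelled arrays. Aqp8 of that list lay between 1.88 and 2.52 on all 10 arrays. On rosiglitazone that list read 4.12 in mouse 48, 4.81 in mouse 42 and 5.46 in mouse 47 of the wild type, against 4.53, 5.52 and 4.51 in knockout-labelled mice 46, 45 and 44, and its part in the differences was not tested.

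**Figure D4:**
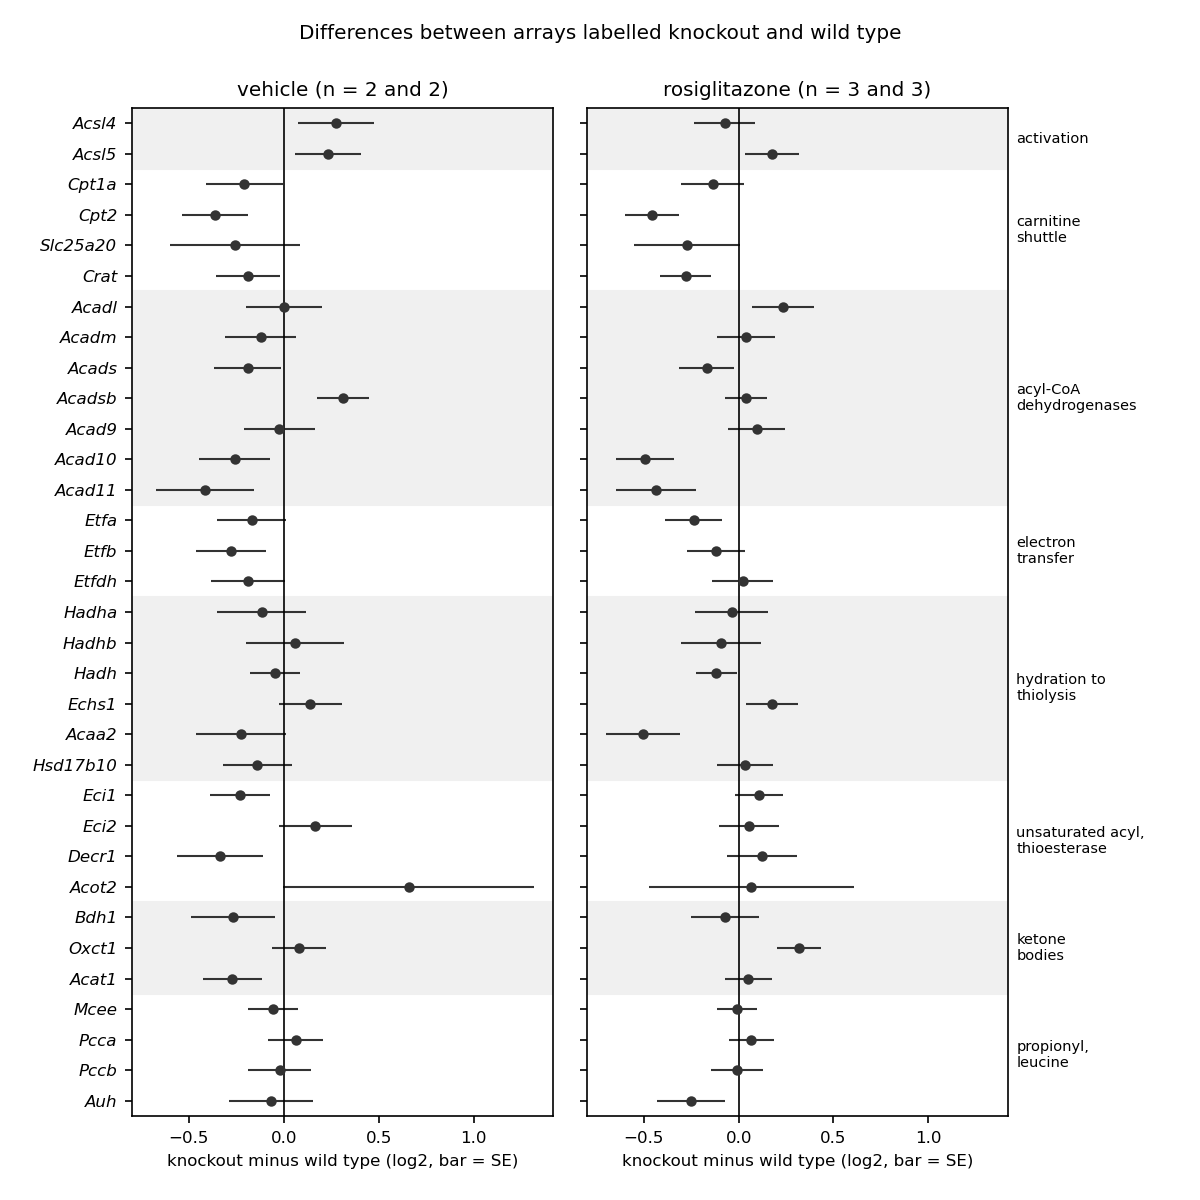
Knockout-labelled minus wild-type difference (log2, horizontal axis) for each measured gene under vehicle (left) and rosiglitazone (right), with bars of 1 SE from the fit. Cpt2, Crat and Slc25a20 lie below 0 on both sides, Acad10 and Acaa2 are lowest under rosiglitazone, and Oxct1 is the highest there at 0.32.

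The difference between the responses of the genotypes was tested directly. In that comparison 18 of 33 members, or 54.5%, were positive. Of all probe sets 44.6% were, and of the brighter ones 53.7%, near the share of the members. The median was 0.01 against -0.03 over all probe sets, and 0 members had an unadjusted p under 0.05, which 2.32% of probe sets had. With mouse as a fixed block 2 did, Hadhb and Acot2, against 5.09% of all. Centring each array made 14 of 33 positive, and the share of all probe sets then positive was not counted. Acadsb and Acot2 were higher in both wild-type mice and lower in both knockout-labelled mice, as were 6.01% of probe sets, and Acat1 was the reverse, as were 5.81%. These counts, 2 and 1 of 33 members, were near the shares over the array. With each array centred, Acot2 alone kept its pattern, since Acadsb came to -0.03 in mouse 42 and 0.01 in mouse 44 and Acat1 to 0.07 in mouse 47, and Oxct1 then had the reverse pattern.

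The other genes of the pathway were taken from a list of 52, of which 46 have values here. In wild type 27 of 46 were higher on rosiglitazone (54.3% of all probe sets were), with a median of 0.08 against 0.01 over all. In knockout-labelled arrays 31 of 46 were higher (46.4% of all), with a median of 0.05 against -0.01. Of the 46 genes 0 passed the test in any of the 5 comparisons. Pdk4, the kinase that turns off pyruvate dehydrogenase and so favours fat as fuel, was higher by 1.36 and 1.71 in mice 42 and 47 and differed by -0.16 and -0.24 in mice 44 and 46. It was dim, at 2.45 and 2.54 in wild-type vehicle, 2.34, 3.80 and 4.26 in wild-type rosiglitazone and from 2.18 to 2.79 in knockout-labelled arrays, so mouse 48 lay below both vehicle arrays. The wild-type fit gave 0.97 (SE 0.43, n = 3 and 2, limma adjusted p = 1), and 1.53 (SE 0.13, adjusted p = 0.257) with mouse as a fixed block. Ppara, the receptor best known for driving these genes in liver, read from 3.71 to 4.42 on the 10 arrays and differed by -0.01 (SE 0.21) in wild type and 0.06 (SE 0.21) in knockout-labelled arrays (limma adjusted p = 1 for each). Ppargc1a, a coactivator of mitochondrial genes, differed by 0.08 (SE 0.24) and -0.22 (SE 0.24), and Slc22a5, the carnitine importer of the cell membrane, by -0.01 (SE 0.20) and 0.11 (SE 0.20), all with n = 3 and 2 and adjusted p = 1.

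Promoters were read from RefSeq for GRCm38.p6, as 300 bases from 250 before to 50 after each start site. Of the 36 genes 31 had an entry, with 34 promoters, and Acaa2, Acad9, Acat1, Crat and Decr1 did not. The AGGTCA hexamer, searched on both strands, was in 6 member promoters, of Acadm, Acadvl, Cpt1a, Echs1 and Pcca, which is 17.6% against 16.3% of all 32851 promoters. A PPAR element, written as 2 AGGTCA hexamers in the same direction with 1 base between, was in 0 member promoters exactly or with 1 mismatch, against 0.0396% and 0.554% of all. With 2 mismatches, a setting added after none was found, 4 member promoters held it, 11.8% against 3.86% of all. The letters TGACCTTTG and TGACCTTGG, which contain the hexamer in reverse complement, were in 0 member promoters against 0.478% and 0.536% of all, and TNAAGGTCA, which contains it too, in 0 against 1.28%. That motif and the next were added after the first results were seen. The GC-box core GGGCGG was in 23 member promoters, 67.6% against 35.7% of all, and the median GC content was 60.5% against 52.7%. TATAAA was in 0 of the 34 within 40 bases before the start, against 2.31%.

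The 4 stretches that matched with 2 mismatches are shown because they are the nearest to the PPAR element in any member promoter; each is 13 bases, written in the direction of the element, with capitals where it matches and the 1 spacer base in lower case. They lie at chr7:140116492-140116504 on the minus strand for Echs1, chr9:55512308-55512320 on the plus strand, opposite to the gene, for Etfa, chr9:108662142-108662154 on the plus strand for Slc25a20 and chr14:122534327-122534339 on the plus strand for Pcca.
Echs1: AGGTCAcgGGTCc
Etfa: AGGgCAaAGGTaA
Slc25a20: AGGTgAaAGGTCg
Pcca: gGGTgAgAGGTCA

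Beside these stretches the paired values did not go together: within mice 42 and 47 Slc25a20 differed by 0.26 and 0.46 and Etfa by 0.22 and 0.26, whereas Echs1 differed by -0.18 and -0.28 and Pcca by -0.06 and -0.18. A match of letters does not show binding, and binding was not measured.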

How the data were processed

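The authors deposited normalized log2 expression for 35556 probe sets on 10 arrays, made with RMA per the submitters' processing notes. The RMA version is not given in the sources used here. The platform annotation named genes for 23099 probe sets, which were tested, and 12457 were left out. Of those tested 21218 carried 1 symbol and 1881 several, and for a gene with several probe sets the one with the highest mean over 10 arrays was used. The tests were limma 3.58.1 (R 4.3.3, statmod 1.5.0) with a mean per group over all arrays and no block, 6 residual and 4.39 prior degrees of freedom, two-sided, with Benjamini-Hochberg adjustment over all 23099 and a threshold of 0.05. The code was tested on simulated data.

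The labels give each array its donor mouse, which pairs the treatments in 4 of 6 mice. In this pairing check the differences between mice correlated across treatments at r = 0.44 in wild type and 0.487 in knockout-labelled arrays, and 8 of 8 paired arrays correlated best with their own mouse. Replicates of a group are different mice. Members and gene lists were chosen with earlier results of these data known. Named are the step genes whatever their values, the 4 members with the smallest p in each comparison, up to 4 each with the largest paired differences of the same or opposite sign, the 4 brightest and 4 dimmest, and others by counts. Eci2, Auh, Pccb, Acot1, Acot3 and Acot4 were among those named after their values were seen. The other genes of the pathway list are not reported here beyond the 46 with values.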

Additional observations from a re-analysis of the deposited data

Results flagged for a closer look

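In 3 genes both wild-type mice differed in the same direction on rosiglitazone and both knockout-labelled mice in the opposite direction. The mean response of knockout-labelled mice minus that of wild-type mice was -0.99 for Acot2, -0.22 for Acadsb and 0.20 for Acat1. The interaction of limma did not call any of them: with mouse as a fixed block, adjusted p was 0.779 for Acot2 and 0.98 for Acadsb and Acat1. The wild-type differences of Acat1 were -0.02 and 0.00 in mice 42 and 47, so its sign in wild type rests on values near 0, as does that of Acadsb, at 0.01 in mouse 42. With each array centred on its median, a check added after the values were seen, Acot2 alone of the 3 kept the pattern. Over all probe sets, 6.01% had the pattern of Acot2 and Acadsb and 5.81% that of Acat1. Groups of 2 and 3 arrays were too small for a check of single outlying arrays.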

How the results depend on the processing

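In all 21 alternative settings 0 members passed in any comparison (smallest adjusted p 0.352, for Acad10 between genotypes under rosiglitazone on the 4 paired mice). Leaving out an array moved the list's median: difference between responses -0.080 (without wild-type rosiglitazone replicate 1) to 0.11 (without knockout vehicle replicate 1), knockout response -0.051 (without knockout vehicle replicate 2) to 0.18 (without replicate 1), wild-type response -0.01 to 0.12, genotype under vehicle -0.20 to 0.037 (without knockout vehicle replicate 2), and genotype under rosiglitazone -0.15 (without wild-type rosiglitazone replicate 1) to 0.0046. On the 4 paired mice the last was -0.15, and centring took the vehicle median to 0.0051.

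The replicate number of the titles does not mark the mouse. With it as a replicate block the wild-type median was -0.02, and probe sets called numbered 13 between genotypes under rosiglitazone (5 without it) and 3 under vehicle (0 without it). Calls under rosiglitazone were 1 after repeated quantile normalization, with all deposited probe sets or with only the groups compared, 16 on the paired mice, and 1 to 23 leaving out an array. Under vehicle they were 1 with mouse as a random block, after quantile normalization or with bright probe sets, 2 centred, 4 with only the groups compared, 6 on the paired mice, and 0 to 6 leaving out an array. The knockout response had 1 with mouse as a random block. The cause of these shifts was not tested. The fixed block could not be fitted for genotype, and only the compared groups is the same fit for the interaction. Every member's differences kept their sign in all settings for 17, 11, 12, 20 and 17 of 33 members in the comparisons of wild-type response, knockout response, their difference, genotype under vehicle and genotype under rosiglitazone.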

Other observations

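Other genes near the pathway were chosen after their values were seen. Acacb, the acetyl-CoA carboxylase whose product restrains Cpt1a, read 4.39 and 4.19 in wild-type vehicle and 4.19, 5.32 and 4.93 in wild-type rosiglitazone, with mouse 48 again at the vehicle level. Its paired differences were 0.92 and 0.74 in mice 42 and 47 and 0.08 and 0.26 in mice 44 and 46, and with mouse as a fixed block the limma adjusted p was 0.311 in wild type. Mmut, the mutase that follows Mcee, read from 7.24 to 7.61 on the 5 wild-type arrays and from 7.69 to 7.87 on the 5 knockout-labelled arrays. Its difference was 0.28 (SE 0.15, n = 2 and 2, limma adjusted p = 0.855) under vehicle and 0.35 (SE 0.12, n = 3 and 3, adjusted p = 0.957) under rosiglitazone. Of all probe sets, 23% were higher in knockout-labelled arrays without overlap under vehicle and 4.22% under rosiglitazone. The share over both treatments was not counted.

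Acss1, a mitochondrial synthetase for acetate, was lowest in mouse 46 on both treatments, at 3.73 on vehicle and 4.92 on rosiglitazone, against 5.92 to 6.46 on the other 8 arrays. Fabp5, a fatty acid carrier, was lowest in the same animal, at 5.12 and 4.59, against 5.92 to 6.88 elsewhere. Means of some lists of cell type markers were lowest in that animal too, but not of all. Enteroendocrine markers averaged 3.05 and 3.09 there, against 2.99 in treated mouse 47. Colonocyte markers averaged 4.06 and 4.53, against 4.07 in vehicle of mouse 44 and 4.12 in treated mouse 48. Goblet cell markers (6 of 7 measured) averaged 4.09 and 3.97 against 4.39 to 8.78 elsewhere, and stem cell markers (5 of 5) 5.19 and 5.25 against 5.62 to 6.28. Of the goblet markers, Muc2, Clca1, Spink4 and Agr2 were lowest there on both treatments. Tff3, at 5.38 on vehicle of mouse 46, was above 4.39 in treated mouse 48, and Zg16, at 4.93 on rosiglitazone, was above 4.85. Of the stem markers, Ascl2 and Lgr5 were lowest there on both treatments, whereas Smoc2 and Axin2 were lowest in mice 44 and 47. The part of these markers in the Acss1 and Fabp5 values was not tested. The lactate and ketone body transporter Slc16a1 was higher on rosiglitazone in all 4 paired mice, by 0.16 and 0.31 in mice 42 and 47 and 0.11 and 0.16 in mice 44 and 46, with limma adjusted p = 1 in either genotype.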
